A study of Mus musculus with 8 samples.

Results

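Ctgf, Cyr61, Ankrd1, Ajuba, Amotl2, Thbs1, Crim1, Tnfrsf12a, Axl and Lats2 are targets of the transcriptional coactivators YAP and TAZ, and their RNA was followed in mouse embryonic fibroblasts (MEFs) exposed to RHPS4. These 10 genes, of 24460 counted, were chosen on normalized counts from these same libraries, to see whether the higher level of Ctgf at 2 µM and its lower level at 10 µM held for the group. Their changes between doses are therefore given as a description, without p-values. All 10 were among the 14296 genes that passed the filter on low counts. RHPS4 is a positively charged small molecule that binds G-quadruplexes, 4-stranded structures formed by guanine-rich nucleic acids. Subconfluent wild type MEFs were grown in the same high-glucose, serum-containing medium without RHPS4 (0 µM, 3 libraries), or with 2 µM (3 libraries) or 10 µM (2 libraries). Exposures of 16 or 24 h are listed for the study as a whole and are not tied to single libraries. Total RNA depleted of nuclear ribosomal RNA was sequenced, and the values below are CPM, the counts of a gene divided by its library's TMM-scaled total, given by library in the order of the replicate numbers.

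YAP (gene Yap1) and TAZ (gene Wwtr1) have no DNA-binding domain of their own and reach their targets mostly through the TEAD transcription factors. The kinases of the Hippo pathway, ending in LATS1 and LATS2, phosphorylate YAP and TAZ and keep them out of the nucleus, whereas spread cells on a stiff substrate hold them in it. In fibroblasts they are known for driving matricellular and cytoskeletal genes, and several of their targets encode proteins that act back on the pathway.

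Libraries held between 10455965 and 26688121 counts, of which 3 stood for 0.112 to 0.287 CPM, whereas the 10 genes had 367 to 16741 counts per library. The first 0 µM replicate stood apart from its group, with a chi-square per degree of freedom of 15.4 and 20.2 against the other 0 µM libraries, which differed from each other by 3.23, and the counts of called genes below are given with and without it. The share of counts on mitochondrial genes moved with the dose, from 13.2 to 14.4% at 0 µM to 7.40 to 8.26% at 2 µM and 5.33 to 6.32% at 10 µM. With TMM fitted over nuclear genes only, the same numbers of the 10 genes were called in each comparison. Of 10 fibroblast markers, 9 were at 5 CPM or more in every library, and the list summed to 13484 to 13918.5 CPM untreated, 12375 to 12569 with 2 µM, and 12054 to 12298 with 10 µM. The 16 markers of epithelial, endothelial, immune, muscle and neural cells summed to 16.7 to 19.7 CPM untreated, 17.6 to 19.2 with 2 µM, and 23.8 to 27.1 with 10 µM, and none was at 0 in every library. The highest of these at 10 µM was Tubb3, a neuronal tubulin, at 7.69 and 6.91 CPM. The part of these shifts in the results below was not tested. In bulk RNA, fewer cells of a type and less RNA per cell cannot be told apart. Nothing in the sources used here says that the libraries came from separate cultures, so that p-values measure only the spread between these libraries, which may be technical.

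At 2 µM, 9 of the 10 genes had every library above every 0 µM library, against 12.7% of all tested genes (12.9% had every library below), and at 10 µM all 10 lay wholly below the 2 µM libraries, against 24.9% (27.0% lay wholly above). Against 0 µM, however, the 10 µM levels divided the group. Ctgf and Axl were below the 0 µM libraries, Crim1 and Amotl2 were above them, and the other 6 genes overlapped them, where 20.0% of all tested genes lay wholly below and 22.9% wholly above. Among the other 9 genes, Axl alone thus shared with Ctgf a level below untreated cells in both 10 µM libraries, by much less. These placements are what the group was chosen on, and nothing is read from the counts.

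**Figure D1:**
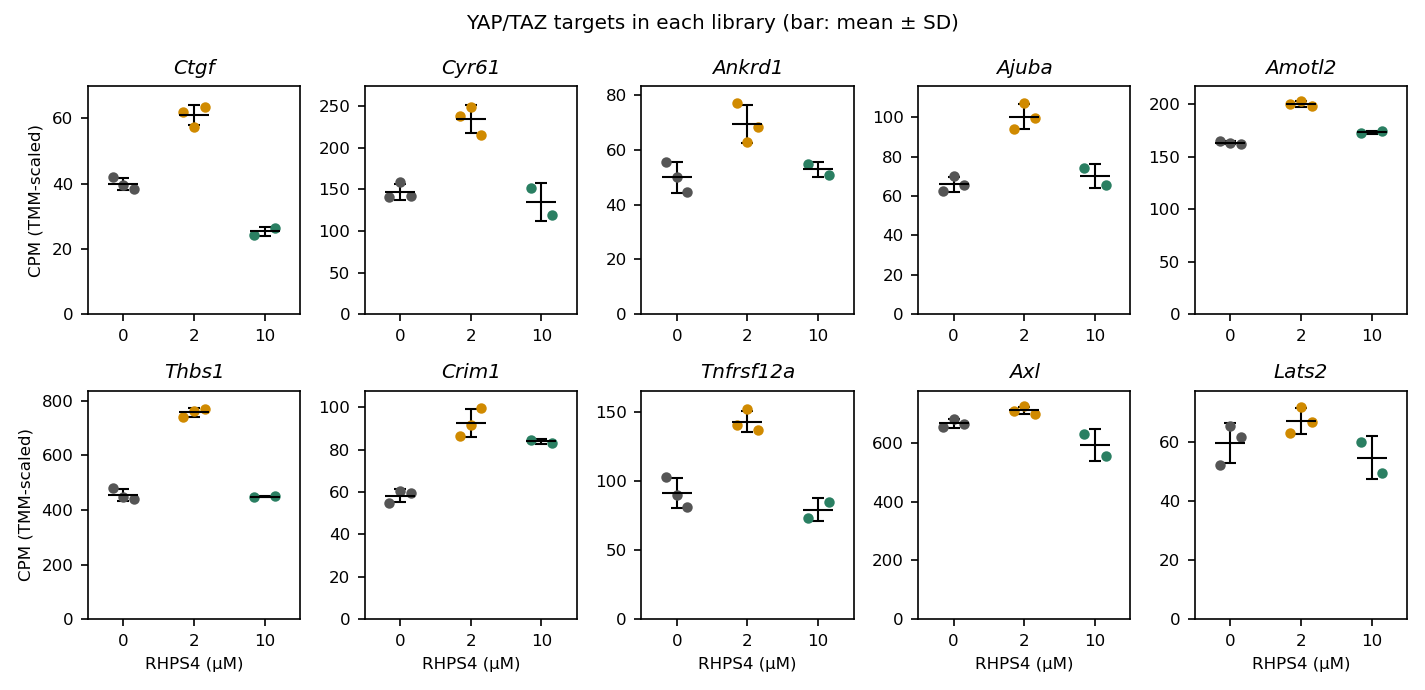
TMM-scaled CPM (linear axes from 0) of each of the 10 genes against the RHPS4 dose in µM, 1 point per library, with horizontal and vertical bars for the mean ± SD. The 2 µM points lie above the 0 µM points for every gene but Lats2 and above the 10 µM points for all 10, and the 10 µM points lie clearly below 0 µM for Ctgf and above it for Crim1.

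Promoter windows from RefSeq on GRCm38.p6, each running from 250 bases before to 50 bases after an annotated start site, matched 8 of the 10 genes with 9 windows, and none was matched for Ctgf or Thbs1. The core of the TEAD site, GGAATG on either strand, stood in 7 of the 9 windows (7 of the 8 genes, all but Tnfrsf12a), against 14.7% of all 32851 windows. Genes listed as YAP and TAZ targets may be known partly for such sites, so nothing is read from this share. Cyr61, Ankrd1, Ajuba and Crim1 are printed 5′ to 3′ along the gene, since the first 3 were back near their 0 µM level at 10 µM and Crim1 was not. Capitals mark the TEAD core, which reads CATTCC where it lies on the other strand.
Cyr61 (chr3:145649936-145650235, minus strand): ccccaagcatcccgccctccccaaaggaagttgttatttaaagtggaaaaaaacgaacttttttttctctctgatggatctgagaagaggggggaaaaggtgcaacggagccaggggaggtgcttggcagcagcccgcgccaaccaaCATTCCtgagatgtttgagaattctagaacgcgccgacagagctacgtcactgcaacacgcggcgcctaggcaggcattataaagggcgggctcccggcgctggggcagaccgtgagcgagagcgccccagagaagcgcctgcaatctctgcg
Ankrd1 (chr19:36119795-36120094, minus strand): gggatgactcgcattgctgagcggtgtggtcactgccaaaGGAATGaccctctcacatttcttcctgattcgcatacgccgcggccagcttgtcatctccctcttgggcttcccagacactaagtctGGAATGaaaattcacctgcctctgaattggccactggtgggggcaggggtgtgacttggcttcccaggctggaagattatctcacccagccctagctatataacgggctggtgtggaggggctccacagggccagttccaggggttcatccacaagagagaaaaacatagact
Ajuba (chr14:54577612-54577911, minus strand): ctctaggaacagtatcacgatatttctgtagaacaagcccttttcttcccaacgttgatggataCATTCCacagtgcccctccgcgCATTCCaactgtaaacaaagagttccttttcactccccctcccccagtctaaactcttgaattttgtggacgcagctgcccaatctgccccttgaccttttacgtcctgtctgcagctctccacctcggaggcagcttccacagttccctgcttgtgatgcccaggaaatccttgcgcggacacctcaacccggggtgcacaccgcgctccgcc
Crim1 (chr17:78199998-78200297, plus strand): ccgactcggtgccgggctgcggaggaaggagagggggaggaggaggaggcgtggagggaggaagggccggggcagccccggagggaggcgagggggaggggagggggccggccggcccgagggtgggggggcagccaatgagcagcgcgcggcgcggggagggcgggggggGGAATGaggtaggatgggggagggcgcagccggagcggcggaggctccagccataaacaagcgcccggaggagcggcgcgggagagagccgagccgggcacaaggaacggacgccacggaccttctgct
The core lay at −103 to −98 from the start site of Cyr61, at −79 to −74 of Crim1, and at a pair of places in Ankrd1 (−210 to −205 and −123 to −118) and Ajuba (−186 to −181 and −164 to −159). Outside the printed windows it lay at −65 to −60 in Amotl2, at −233 to −228 in Axl and at 5 to 10 bases after the start in the first of the windows of Lats2. A G-quadruplex motif (4 runs of 3 or more G with 1 to 7 bases between them, either strand) was found in the windows of Cyr61 and Crim1, against 18.6% of all windows. The bases between could be G too, so that a long run of G could count as more than 1 of the 4. In Crim1 one match of this looser kind, from −95 to −78, ran into the TEAD core. It ended in a run of 9 G that was counted more than once, and so had fewer than 4 separate runs. Another match in that window, from −168 to −144, had 4 separate runs. The GC content of the window was 76% where the median window had 52.7%. The AP-1 site TGANTCA and the CArG box were in none of the 9 windows and in 7.81% and 1.63% of all windows. These matches describe letters in a short window and not binding.

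**Figure D2:**
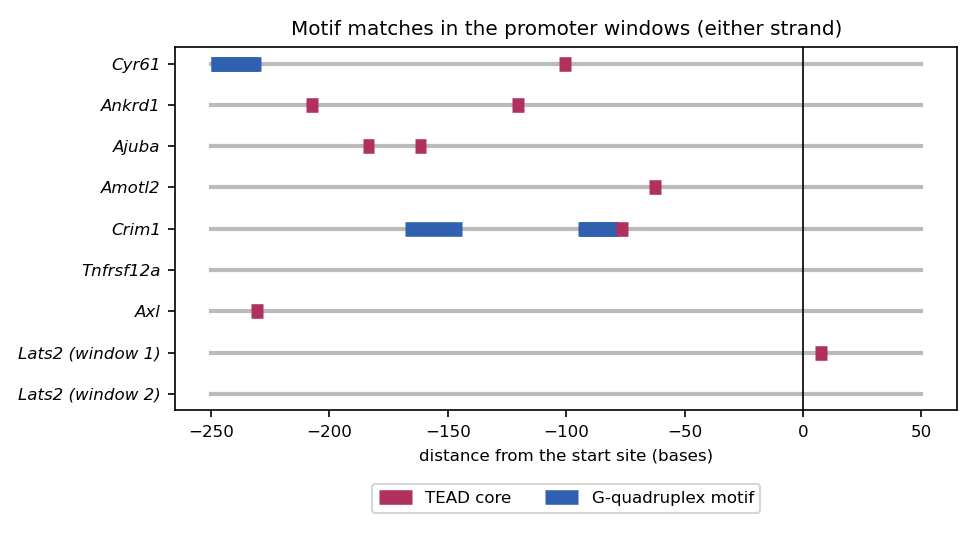
Matches of the TEAD core (red) and of the G-quadruplex motif (blue) in the 9 promoter windows, by distance from the start site in bases (vertical line at 0, matches on either strand, to scale). A TEAD core is drawn for 7 of the 8 genes, with a pair each in Ankrd1 and Ajuba, and G-quadruplex matches appear in Cyr61 and Crim1 only.

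Among the secreted proteins, Ctgf (annotated as Ccn2, chr10:24595442-24598683, plus strand), a matricellular protein of the CCN family, had 41.9, 39.4 and 38.3 CPM untreated, 61.8, 57.5 and 63.4 with 2 µM, and 24.4 and 26.4 with 10 µM. No library overlapped one of another dose, and both 10 µM libraries were the lowest of all. The means were 39.9 ± 1.85 CPM (SD, n = 3), 60.9 ± 3.05 (SD, n = 3) and 25.4 ± 1.44 (SD, n = 2), and the log2 fold changes against 0 µM were 0.61 (standard error 0.0761) at 2 µM and −0.65 (standard error 0.0893) at 10 µM. An antisense transcript, Gm15270, overlaps the gene, and the strand setting of the counting is not given in the sources used here. Cyr61 (annotated as Ccn1, chr3:145646976-145649981, minus strand), the closest relative of Ctgf in this group, had 141, 158 and 142 CPM untreated, 238, 249 and 216 with 2 µM, and 151 and 119 with 10 µM. Its 2 µM libraries stood well above the rest, while 1 of the 10 µM libraries lay among the 0 µM libraries and the other below them. Its log2 fold changes against 0 µM were 0.67 (standard error 0.0970) at 2 µM and −0.12 (standard error 0.109) at 10 µM. The ratio of Ctgf to Cyr61 within a library was −1.88 ± 0.127 on the log2 scale (0.5 added to each count; SD, n = 3) untreated, −1.94 ± 0.176 with 2 µM and −2.40 ± 0.326 (SD, n = 2) with 10 µM. Between 0 and 2 µM the ratios overlapped, and both 10 µM ratios were lower than all others.

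Thbs1 (chr2:118111876-118127133, plus strand) encodes thrombospondin-1, a secreted glycoprotein that activates latent TGF-β, and had the largest change of the group at 2 µM. It had 479, 449 and 438 CPM untreated, 741, 762 and 769.5 with 2 µM, and 449 and 449.8 with 10 µM. The 10 µM libraries lay inside the range of the 0 µM libraries, so that the difference seen at 2 µM was absent at 10 µM, with log2 fold changes of 0.73 (standard error 0.0667) and −0.02 (standard error 0.0743) against 0 µM. The within-library log2 ratio of Ctgf to Thbs1 was −3.51 ± 0.00467 (SD, n = 3) untreated, −3.64 ± 0.0792 with 2 µM and −4.14 ± 0.0793 (SD, n = 2) with 10 µM, without overlap between the doses. A non-coding RNA on the other strand, Gm29233, overlaps Thbs1.

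Crim1 (chr17:78200248-78376592, plus strand), a transmembrane protein with cysteine-rich repeats that binds BMPs, had 55.01, 60.5 and 59.6 CPM untreated, 86.4, 91.5 and 99.5 with 2 µM, and 84.6 and 83.2 with 10 µM. Both 10 µM libraries were far above every 0 µM library and just below the lowest 2 µM library. Its log2 fold changes against 0 µM were 0.66 (standard error 0.0751) and 0.52 (standard error 0.0828), and 25.0% of the difference in mean CPM between 0 and 2 µM was absent at 10 µM. The same share was 73.4% for Amotl2, 85.6% for Ankrd1, 88.6% for Ajuba, 102% for Thbs1 and 114% for Cyr61. It was 124% for Tnfrsf12a, 169% for Ctgf, 169% for Lats2 and 270% for Axl. For Lats2 and Axl the share divides by a small difference at 2 µM and is unstable. Within a library, the log2 ratio of Ctgf to Crim1 was −0.55 ± 0.136 (SD, n = 3) untreated, −0.60 ± 0.103 with 2 µM and −1.73 ± 0.0990 (SD, n = 2) with 10 µM. The ratios at 0 and 2 µM overlapped, and those at 10 µM lay below them all. Against 0 µM, Ctgf was the lowest and Crim1 the highest of the 10 genes at 10 µM, so the parting there describes the extremes. A ratio of this kind does not depend on how the libraries were scaled. Crim1 overlaps Fez2, which lies on the other strand.

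Of the receptors, Tnfrsf12a (chr17:23675445-23677468, minus strand), which encodes the TWEAK receptor Fn14, had 103, 90.2 and 81.7 CPM untreated, 141, 152 and 137 with 2 µM, and 73.6 and 85.2 with 10 µM. One of its 10 µM libraries lay within the 0 µM range and the other below it. Its log2 fold changes against 0 µM were 0.65 (standard error 0.0949) at 2 µM and −0.20 (standard error 0.107) at 10 µM. Axl (chr7:25757273-25788705, minus strand), a receptor tyrosine kinase bound by Gas6, had 653, 682 and 665 CPM untreated, 709, 724 and 698 with 2 µM, and 631 and 554 with 10 µM. The doses did not overlap, although the steps between them were small, with log2 fold changes against 0 µM of 0.09 (standard error 0.0714) and −0.17 (standard error 0.0802). The ratio of Thbs1 to Axl within a library, −0.55 ± 0.0900 (SD, n = 3) on the log2 scale in untreated cells, was 0.09 ± 0.0426 (SD, n = 3) with 2 µM and −0.40 ± 0.136 (SD, n = 2) with 10 µM. Its 2 µM values stood above all others, and its 0 and 10 µM values overlapped.

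Ajuba, Amotl2 and Lats2 encode proteins that act on the Hippo pathway. Ajuba (chr14:54567472-54577558, minus strand), a LIM protein that binds LATS kinases, had 62.7, 70.2 and 65.4 CPM untreated, 94.3, 107 and 99.8 with 2 µM, and 74.4 and 65.7 with 10 µM. The 2 µM libraries were the highest 3 and the 10 µM libraries overlapped those at 0 µM, with log2 fold changes of 0.60 (standard error 0.0801) and 0.08 (standard error 0.0897) against 0 µM. Amotl2 (chr9:102716672-102733418, plus strand), an angiomotin that holds YAP in the cytoplasm, had 165, 163 and 162 CPM untreated, 200.3, 203 and 198 with 2 µM, and 172 and 174 with 10 µM. Its replicates were close together and the doses did not overlap, at log2 fold changes of 0.29 (standard error 0.0598) and 0.08 (standard error 0.0667). Lats2 (chr14:57689662-57758388, minus strand), the kinase that phosphorylates YAP and TAZ, had 52.3, 65.4 and 61.9 CPM untreated, 63.1, 71.8 and 66.9 with 2 µM, and 59.9 and 49.6 with 10 µM. It was the only one of the 10 whose 0 and 2 µM libraries overlapped, at log2 fold changes of 0.16 (standard error 0.100) and −0.13 (standard error 0.113), and the protein-coding model Gm49361 overlaps it on the same strand. Ankrd1 (chr19:36111961-36120099, minus strand), an ankyrin repeat protein of muscle and stressed cells that serves as a standard YAP readout, had 55.6, 49.95 and 44.4 CPM untreated, 76.9, 62.9 and 68.4 with 2 µM, and 54.8 and 50.8 with 10 µM. Its 2 µM libraries lay above the others and its 10 µM libraries lay among those at 0 µM, at log2 fold changes of 0.48 (standard error 0.0991) and 0.09 (standard error 0.111).

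Per kilobase of exon (GENCODE M21 on GRCm38), the order of the levels at 0 µM was Axl at 132.5 ± 2.91 CPM per kb (SD, n = 3), Thbs1 at 75.0 ± 3.52, Cyr61 at 72.9 ± 4.78, Tnfrsf12a at 47.5 ± 5.61, Amotl2 at 26.0 ± 0.216, Ajuba at 18.1 ± 1.04, Ankrd1 at 17.3 ± 1.95, Ctgf at 13.9 ± 0.648, Crim1 at 9.73 ± 0.488 and Lats2 at 8.59 ± 0.973. Some neighbours in this order were not separated beyond the spread between libraries, namely Thbs1 and Cyr61, Ajuba and Ankrd1, and Crim1 and Lats2. Axl, the most abundant member, and Lats2, with the lowest mean, were also those with the smallest differences at 2 µM. Crim1, whose level overlapped that of Lats2, differed by 0.66 on the log2 scale there, so level and difference did not go together.

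Over the group, the median log2 fold change was 0.61 at 2 µM against 0 µM, −0.07 at 10 µM against 0 µM and −0.46 at 10 µM against 2 µM, where the medians over all tested genes were −0.01, 0.02 and 0.03. The fitted changes ranged from 0.09 to 0.73, from −0.65 to 0.52 and from −1.26 to −0.14. By library, the median ratio of the 10 genes to their 0 µM means was 0.994, 1.01 and 0.977 at 0 µM, between 1.48 and 1.51 at 2 µM, and 1.01 and 0.959 at 10 µM. All 3 libraries at 2 µM were alike in this, and both 10 µM libraries were back within 0.05 of 1, with Ctgf lowest (0.611 and 0.662) and Crim1 highest (1.45 and 1.43) in each. Without the first 0 µM replicate the 3 group medians were 0.60, −0.07 and −0.49.

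**Figure D3:**
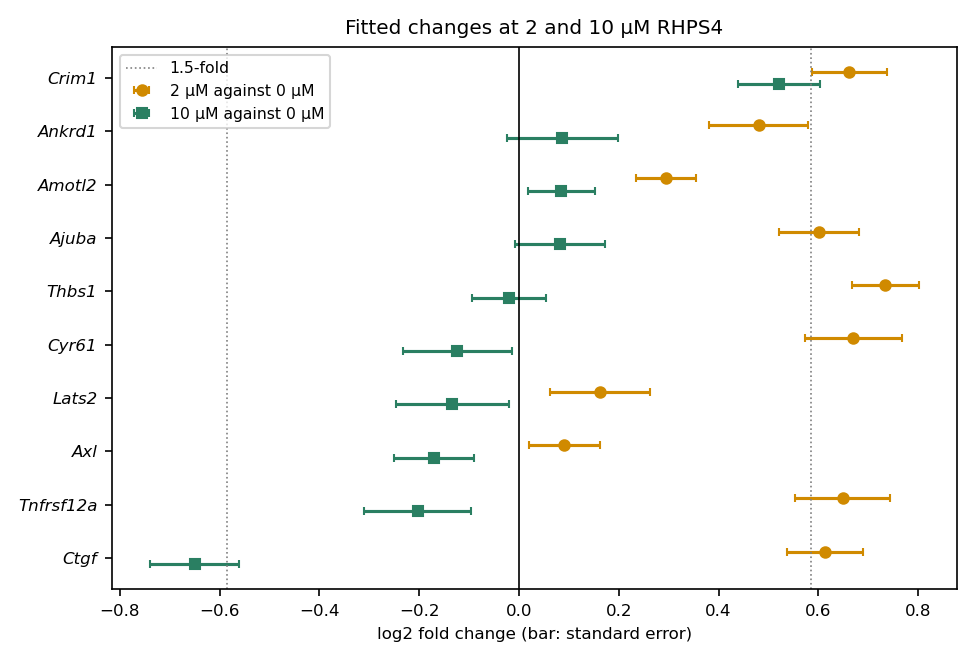
Fitted log2 fold changes of the 10 genes at 2 µM (orange circles) and 10 µM (green squares) against 0 µM, with bars for the standard error and dotted lines at a 1.5-fold change. All 10 are positive at 2 µM under every scaling, and at 10 µM they spread from −0.65 (Ctgf) to 0.52 (Crim1), where scaling by total counts turns the sign of Cyr61, Thbs1, Tnfrsf12a, Axl and Lats2 to positive.

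A gene was called where edgeR's quasi-likelihood test gave a Benjamini-Hochberg adjusted p under 0.01 over all tested genes with a fold change over 1.5, and the adjusted p-values below are from this test. At 2 µM, 6 of the 10 genes were called higher (Ctgf, Cyr61, Ajuba, Thbs1, Crim1 and Tnfrsf12a), among 0.119% of all tested genes (17 genes) called higher and 0.378% called lower. These 6 were therefore among the 17, but the comparison is the one the group was chosen on. The count was 5 without the first 0 µM replicate, where Ajuba was not called. Only Thbs1 (1 gene) was called when the second or the third 0 µM library was left out, Crim1 and Thbs1 (2 genes) when the first or the third 2 µM library was, and 0 when the second 2 µM library was, and the count over all genes moved with it, from 71 to 19, 15, 24, 29 and 6 in that order. In each of these fits all 10 fold changes were still positive.

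At 10 µM against 0 µM, Ctgf alone was called lower, where 1.14% of all tested genes were called lower and 1.95% higher, and Crim1 remained under the fold limit. The Ctgf call was lost without the first 10 µM replicate, where its log2 fold change was −0.62. Scaling by total counts alone moved the median of all tested genes to 0.07, 0.23 and 0.16 in the 3 comparisons (2 µM against 0 µM, 10 µM against 0 µM and 10 µM against 2 µM) and turned the group at 10 µM, with 9 of the 10 genes positive and a median of 0.14. Under it Ctgf, at −0.43, was no longer called and Crim1, at 0.74, was called higher, and of all calls 92.6% were higher. At 10 µM against 2 µM, 4 of the 10 were called lower (Ctgf, Cyr61, Thbs1 and Tnfrsf12a) beside 1.59% of all tested genes lower and 3.92% higher, also without the first 0 µM replicate. This was the same under each scaling, whereas 91.7% of all calls were higher by total counts. The comparisons with 10 µM are also ones the group was chosen on, so nothing is read from these calls of its genes.

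Among the regulators of these genes, the RNA of TAZ (Wwtr1) was lower at 10 µM than untreated, by less than the fold limit. Its change when scaled by total counts is not given here, and the TAZ protein was not measured. Of 8 coactivators and TEAD factors, none was called in any comparison by edgeR, although 3, 6 and 5 had an unadjusted p under 0.05, and 1 of them, Tead1, was called lower at 10 µM against 0 µM by DESeq2 and without the first 0 µM replicate. At least 595, 1991 and 3346 of the 14296 tested genes reached that unadjusted limit, since their adjusted p was under 0.05. The full share is not given, so nothing is read from such counts here or for the lists below. These 8 genes had medians of −0.08, −0.32 and −0.19 at 2 µM against 0 µM, 10 µM against 0 µM and 10 µM against 2 µM, and of −0.0013, −0.10 and −0.05 when scaled by total counts. Wwtr1, which encodes TAZ, was 268, 250.1 and 259.9 CPM untreated, 231, 225 and 225 with 2 µM, and 203 and 194 with 10 µM. Each dose lay below the one before without overlap, and the log2 fold change at 10 µM against 0 µM was −0.39 (standard error 0.0712, adjusted p = 0.00525), under the 1.5-fold limit. Yap1 was 99.96, 121 and 123 CPM untreated, 105, 111 and 116 with 2 µM, and 94.8 and 85.03 with 10 µM, with log2 fold changes of −0.05 (adjusted p = 0.787) and −0.35 (adjusted p = 0.0390) against 0 µM. Its 10 µM libraries were the lowest of the 8, although the first 0 µM replicate was close to them. Tead1 had the largest difference of the list against 0 µM, at −0.37 (adjusted p = 0.233) and −0.55 (adjusted p = 0.0759), and its 0 µM libraries were far apart at 199, 310.1 and 323 CPM, the first replicate being the lowest. Vgll3, a cofactor that binds TEADs, had the largest at 10 µM against 2 µM, −0.46 (adjusted p = 0.00457). Wwtr1 and Yap1 were named with all their values after these were seen.

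Of 23 Hippo kinases and upstream genes, likewise none was called by edgeR in any comparison, with medians of −0.01, −0.09 and −0.12 (0.07, 0.12 and 0.02 when scaled by total counts). An unadjusted p under 0.05 was found for 3, 6 and 8 of them, and 1, Rassf1, was called lower at 10 µM against 2 µM by DESeq2 and without the first 0 µM replicate. Rassf1, a scaffold of the MST kinases, had 60.6 ± 5.002 CPM (SD, n = 3) untreated, 62.7 ± 2.95 (SD, n = 3) with 2 µM, and 42.3 ± 3.64 (SD, n = 2) with 10 µM. Its log2 fold changes of −0.51 against 0 µM (adjusted p = 0.00525) and −0.57 against 2 µM (adjusted p = 0.00187) passed the p but not the fold limit. At 2 µM the largest difference was that of Dchs1, a protocadherin near 1 CPM, at −0.35 (adjusted p = 0.430).

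Of 32 other targets commonly listed for YAP and TAZ, 30 were tested (Igfbp3 and Gas6 were too low), and 0 were called at 2 µM, by edgeR or DESeq2, with 10 at an unadjusted p under 0.05. The largest difference there was that of Edn1, encoding endothelin-1, at 1.44 (adjusted p = 0.0662) on levels under 2 CPM. Their median log2 fold changes were −0.08, −0.13 and −0.09 in the 3 comparisons, and −0.0025, 0.08 and 0.04 when scaled by total counts. At 10 µM against 0 µM, Gadd45a, a DNA damage and stress gene, rose by 1.49 (adjusted p = 0.000383) from 6.64, 7.98 and 6.67 CPM to 24.4 and 15.6. Fosl1, a subunit of AP-1, fell by 1.20 (adjusted p = 0.000170) from 67.99, 73.2 and 74.5 CPM to 36.9 and 25.7. Both were past the limit in each of the 16 alternative analyses and at 10 µM against 2 µM as well, at 1.78 (adjusted p = 0.000126) and −1.26 (adjusted p = 8.86e-05). Fosl1 at 2 µM, 78.8, 72.1 and 75.3 CPM, overlapped 0 µM.

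By edgeR, Fscn1, Ddah1 and Tgfb2 were called at 10 µM against 2 µM and in neither other comparison, which says nothing of whether the comparisons differ. Fscn1, the actin bundler fascin, fell from 278 ± 12.7 CPM (SD, n = 3) with 2 µM to 173 ± 8.19 (SD, n = 2) with 10 µM, by 0.68 on the log2 scale (adjusted p = 0.000218). At 10 µM against 0 µM it stood at −0.56 (adjusted p = 0.000992), just under the fold limit, and was called there by DESeq2 (−0.59), with no filter on low counts (−0.60) and without the first 0 µM (−0.60) or the first 10 µM replicate (−0.64). Ddah1, which degrades methylated arginines, fell by 0.64 at 10 µM against 2 µM (adjusted p = 0.000347), and both lost the call against 2 µM under scaling by total counts. Tgfb2, a TGF-β ligand, rose by 0.68 in the same comparison (adjusted p = 0.00700). Leaving out either 10 µM replicate lost the call of Tgfb2 (0.57 without the first, 0.70 without the second), as did leaving out the second or the third 0 µM or the first or second 2 µM replicate, and DESeq2 did not call it. Nor was it called with only the 2 groups compared (0.68). Without the first 0 µM replicate, Dab2 was called lower at 10 µM against 0 µM beside Fosl1 and Fscn1.

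Of 21 paralogues and binding partners of the 10 genes, 17 were tested and 1 was called. Wisp2, a CCN family member like Ctgf and Cyr61, was 5.29, 5.05 and 3.97 CPM untreated, 3.17, 3.67 and 3.92 with 2 µM, and 7.69 and 9.86 with 10 µM. It stood highest at 10 µM, the dose at which Ctgf stood lowest, and rose by 0.90 against 0 µM (adjusted p = 0.00578) and by 1.27 against 2 µM (adjusted p = 0.000776). Without the second 10 µM replicate both calls were lost (0.69 and 1.05), and the first was lost too when the first 10 µM, the second or the third 0 µM, or the second 2 µM library was left out, and with only the 2 groups compared. The fit with the replicate number as a block lost the call against 0 µM as well (0.87). The medians of the list were −0.10, 0.04 and 0.19 (−0.02, 0.26 and 0.33 when scaled by total counts), and at 2 µM, where neither edgeR nor DESeq2 called any and 2 had an unadjusted p under 0.05, the largest difference was that of Cd47, a receptor of Thbs1, at −0.51 (adjusted p = 0.0619), which was called without the first 0 µM replicate.

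MRTF and SRF, like YAP and TAZ, respond to the actin cytoskeleton. A list of 17 of their genes, all tested, had median log2 fold changes of 0.19, −0.25 and −0.45. It held the genes of these factors (Srf, Mkl1 and Mkl2) beside their targets, so its medians are not those of targets alone. Tagln, an actin-binding protein of smooth muscle, had 84.4, 65.8 and 69.8 CPM untreated, 124, 115 and 118 with 2 µM, and 74.4 and 89.3 with 10 µM. It was the 1 gene of this list called at 2 µM, where it rose by 0.70 (adjusted p = 0.00451), and its 10 µM libraries overlapped those at 0 µM. This call was lost when the second or the third 0 µM library was left out (0.64 and 0.67), and when any 2 µM library was (0.67 to 0.73). It was also lost with the replicate number as a block in the fit (0.71). Myl9, a myosin light chain, fell by 0.76 at 10 µM against 2 µM (adjusted p = 0.00187), a call that was lost without the first 10 µM replicate (−0.70). Acta2, the smooth muscle actin, named after its values were seen, had 154 ± 9.43 CPM (SD, n = 3), 227 ± 11.1 (SD, n = 3) and 154 ± 6.59 (SD, n = 2), and its 0.56 at 2 µM (adjusted p = 0.00247) was under the fold limit. Zyx, a focal adhesion protein, had the largest difference at 10 µM against 0 µM, −0.43 (adjusted p = 0.0239). Scaled by total counts, the medians of this list were 0.28, −0.04 and −0.31. At 10 µM against 0 µM, where edgeR called none, 7 of the 17 had an unadjusted p under 0.05 and DESeq2 called none either, while at 10 µM against 2 µM DESeq2 called 4 lower (Acta2, Cnn2, Myl9 and Srf), among 350 genes lower in all. Without the first 0 µM replicate, 3 were called higher at 2 µM (Acta2, Myl9 and Tagln), 0 at 10 µM against 0 µM, and 5 lower at 10 µM against 2 µM (Acta2, Cnn1, Cnn2, Myl9 and Srf). Over all genes that fit called 28 higher at 2 µM and 333 lower at 10 µM against 2 µM.

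TGF-β genes, several of which YAP and TAZ share with SMADs, had medians of −0.01, −0.18 and −0.19 over 14 genes, and of 0.07, 0.03 and −0.06 when scaled by total counts. Tgfbi, a secreted matrix protein, fell from 91.6 ± 4.94 CPM (SD, n = 3) to 54.4 ± 4.13 (SD, n = 3) with 2 µM and 59.01 ± 0.478 (SD, n = 2) with 10 µM, by 0.75 (adjusted p = 0.00109) and 0.64 (adjusted p = 0.000836). Bhlhe40, a transcriptional repressor, fell by 0.85 (adjusted p = 0.00629) and 1.41 (adjusted p = 0.000158) from 48.05 ± 6.76 CPM. The direction of both at 2 µM was opposite to that of Thbs1 and the other 9 chosen genes. At 2 µM the Tgfbi call was lost without the second 2 µM replicate (−0.73), and that of Bhlhe40 when the second or the third 0 µM library or any 2 µM library was left out, or scaled by total counts. At 10 µM that of Tgfbi was lost without the second 10 µM replicate (−0.67) and by total counts (−0.42). With the replicate number as a block, the calls of Bhlhe40 at 2 µM (−0.85) and of Tgfbi at 10 µM (−0.58) were lost too. Without the first 0 µM replicate, Id1 was also called higher at 2 µM, and Bhlhe40 and Pmepa1 lower at 10 µM against 2 µM. Among the fibroblast markers, Pdgfrb, a PDGF receptor, fell at 10 µM by 0.60 (adjusted p = 0.000248), a call lost under scaling by total counts. Tubb3 rose by 1.42 (adjusted p = 0.000351) against 0 µM and by 1.65 (adjusted p = 0.000147) against 2 µM, and was the 1 other-cell marker called. The marker calls were the same without the first 0 µM replicate.

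Genes outside the group that ran most like Ctgf were ranked by the root mean square difference of log2 CPM, centred on each gene's mean, over the 8 libraries. The nearest of all tested genes were Ccne2 (0.116), Tfrc (0.132), Mfsd2a (0.1499), Exosc6 (0.1502) and Ung (0.157). Ccne2, which encodes cyclin E2, was 77.6, 60.2 and 62.3 CPM untreated, 99.4, 88.04 and 92.97 with 2 µM, and 42.98 and 47.8 with 10 µM. Tfrc, the transferrin receptor, was 336, 291 and 312 CPM untreated, 422, 412 and 418 with 2 µM, and 157 and 166 with 10 µM. In both, as in Ctgf, the 3 doses did not overlap. These genes were picked for their likeness to Ctgf over the same libraries, so nothing is read from this. Of the other 9 chosen genes the nearest to Ctgf was Tnfrsf12a (0.208, rank 15 of all tested genes), followed by Thbs1 (0.256, rank 74) and Cyr61 (0.265, rank 98), and the farthest was Crim1 (0.506, rank 5798). The ranks of the chosen genes rest on the values the group was chosen on and are a description only.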

How the data were processed

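RNA-Seq counts of 8 MEF libraries were used. Per the labels, the authors prepared stranded total RNA libraries after depletion of nuclear ribosomal RNA, and the submitters' processing notes name FastQC, Trim Galore, cutadapt, STAR 2.5.2a, featureCounts and the mm10 build. The deposited values are whole-number counts of fragments per gene and library, without normalization. Libraries were grouped by the labelled dose.

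TMM normalization, filterByExpr and the quasi-likelihood fit and test of edgeR 4.0.16 (R 4.3.3) were run on all 8 libraries, dose being the single factor, with Benjamini-Hochberg adjustment over 14296 genes. Standard errors were derived from each log2 fold change and its F statistic. The fit was tested on simulated data. Positions and exon lengths came from GENCODE M21 (GRCm38), and promoter sequences from RefSeq. Floors of 3 counts cover counting error only, since PCR copies are not independent molecules.

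The 10 genes and all other lists were chosen with earlier results of these data known. Named were the 10 genes, each gene of another list called in a comparison (where none was, the one with the largest fold change; some genes are not reported here) and the 5 genes most like Ctgf. Alternatives were other normalizations (RLE, total counts, nuclear genes only), filters (none, or 10 counts in every library), DESeq2 1.42.0, other thresholds, only the 2 groups compared, a replicate block, and leaving out each library.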

Additional observations from a re-analysis of the deposited data

How the results depend on the processing

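Leaving out 1 library at a time gave 6 to 144 genes (71 with all libraries) and 0 to 6 of the 10 YAP/TAZ targets (6) at 2 µM against 0 µM, 235 to 633 genes (442) and 0 to 1 target (1) at 10 µM against 0 µM, and 444 to 884 genes (788) and 4 to 5 targets (4) at 10 µM against 2 µM. Without a minimum fold, an adjusted p under 0.05 called 595, 1991 and 3346 genes in the 3 comparisons, with 2 targets at 10 µM against 0 µM and 8 at 10 µM against 2 µM, and one under 0.01 called 107, 747 and 1539 genes, with 2 targets at 10 µM against 0 µM. DESeq2 called 109 genes at 2 µM, and scaling by total counts 914 at 10 µM against 0 µM.

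With the replicate number as a block, 54, 322 and 735 genes and 4, 1 and 4 targets were called. Same-numbered 0 and 2 µM libraries correlated in their deviations at 0.199, 0.0845 and 0.161, and those with 10 µM between −0.145 and −0.0212, so the numbers were not taken to pair the libraries.

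For the 10 targets, whose single calls are given above as counts, 425 of the alternative fold changes lay within the spread between replicates of the value reported and 55 did not. For the genes of the other lists that were called in a comparison, 573 alternative values kept their side of the threshold, 42 lost a call and 9 gained one. No called value changed sign in either set. Causes were not tested. With 2 libraries at 10 µM, a fit without one of them assumes that the remaining library varies like the other groups.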
